A study of Homo sapiens with 2 samples.

Results

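The genes of microRNA processing and silencing were read on 2 Affymetrix gene arrays of PC3, an established human prostate cancer cell line. Members were the probe sets whose annotated symbol is TNRC6A, TNRC6B, TNRC6C, AGO1 to AGO4 (or their older EIF2C symbols), DICER1, DROSHA or DGCR8. Of these 10 genes, 4 had a named probe set (TNRC6A, TNRC6B, TNRC6C and DGCR8), among 13864 genes measured in all. The other 6, which are the Argonautes AGO1, AGO2, AGO3 and AGO4 and the nucleases DICER1 and DROSHA, had no named probe set and were not analysed here. DICER1-AS1, the antisense gene beside DICER1, was measured but was not counted as DICER1. The results below therefore describe the silencing scaffolds and 1 subunit of the nuclear processing enzyme.

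One PC3 derivative stably overexpressed a control miR and the other stably overexpressed miR-95. Both were grown in medium with serum, and the comparison gives the differences in transcript values between their arrays. Each group holds 1 array, so no replicate error and no test can be given, and what follows holds for these 2 arrays alone. The sources used here do not say whether a line is 1 clone or a pool. All values are on the log2 scale. Values called deposited are those of the authors' table. Differences are miR-95 minus control after each array was centred on its median over genes, which were 7.46 for the control and 7.495 for miR-95. This lowers each deposited difference by 0.035.

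MicroRNAs are cut from longer transcripts in the nucleus by the Microprocessor, in which the nuclease DROSHA works with the RNA-binding protein DGCR8. The hairpin is exported, trimmed by DICER1 and loaded as a single strand into an Argonaute protein, which pairs with messenger RNAs mainly through the seed near the 5′ end of the small RNA. Argonaute then recruits a GW182 protein, encoded by TNRC6A, TNRC6B or TNRC6C, which bridges to the deadenylase complexes that shorten the poly(A) tail and so to decapping and decay.

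The small RNA raised in these cells is shown because it is the cargo on which this machinery acts. Sequences are from RefSeq (GRCh38.p14), written 5′ to 3′, and the capitals mark the seed, bases 2 to 8. The labels name miR-95 without an arm, so both arms of the hairpin are given. They lie on the minus strand at chr4:8005312-8005333 (3p) and chr4:8005347-8005367 (5p).
hsa-miR-95-3p: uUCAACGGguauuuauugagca
hsa-miR-95-5p: uCAAUAAAugucuguugaauu
The 2 arms carry different seeds, and 0 other mature names in the RefSeq table share either one. No probe set used here named MIR95, so its overexpression could not be checked on the arrays.

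The DGCR8 gene itself holds microRNA hairpins, and the Microprocessor is known to cut hairpins in the DGCR8 transcript, a feedback that lowers DGCR8 when the enzyme is active. RefSeq places MIR3618 and MIR1306 within the span of DGCR8, on the plus strand, and their mature forms are shown because they mark these hairpins. They lie at chr22:20085797-20085818 (miR-3618), chr22:20086072-20086093 (miR-1306-5p) and chr22:20086112-20086129 (miR-1306-3p).
hsa-miR-3618: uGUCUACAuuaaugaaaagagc
hsa-miR-1306-5p: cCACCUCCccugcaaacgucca
hsa-miR-1306-3p: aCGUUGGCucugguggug
None of these seeds equals that of either miR-95 arm. Neither MIR3618 nor MIR1306 had a named probe set.

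TNRC6A, the founding GW182 scaffold, was the member with the largest difference. Its probe set (NM_014494) had a deposited value of 8.99 on the control array and 9.51 on the miR-95 array. The miR-95 array was thus the higher one, by 0.52 as deposited and by 0.485 (1.40-fold) after centring. A gene was called detected when its value reached the median over genes on at least 1 of the arrays, and 7081 genes were. TNRC6A was well inside this group, at the 71.7th percentile of genes on the control array and the 78.9th on the miR-95 array. It ranked 61st from the highest difference among the 7081 detected genes. Of 1914 genes whose mean level lay within 0.5 of its own, 21, itself included, had a difference as large or larger.

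TNRC6B, the paralog with the same role, was nearly equal on the arrays. Its probe set (NM_001024843) gave 8.98 on the control array and 8.96 on the miR-95 array, a centred difference of -0.055. That is close to the median of -0.035 over all detected genes, and it ranked 3870th from the highest. The centred difference of TNRC6A exceeded that of TNRC6B by 0.54.

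TNRC6C, the third paralog, fell short of the detection limit. Its probe set (NM_001142640) gave 7.14 on the control array and 7.45 on the miR-95 array, below the median of both. These values lay at the 45.3rd and 49.3rd percentile of genes. Its centred difference of 0.275 (1.21-fold) pointed the same way as that of TNRC6A. Of 1975 genes within 0.5 of its mean level, 111, itself included, had a difference as large or larger.

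DGCR8, the RNA-binding subunit of the Microprocessor, was the only member measured on the processing side. Its probe set (NM_022720) gave 8.24 on the control array and 8.19 on the miR-95 array. The centred difference was -0.085, against a 5th to 95th percentile range of -0.325 to 0.265 over all detected genes. DGCR8 thus lay in the middle of that range, as did TNRC6B, while TNRC6A lay above it.

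**Figure D1:**
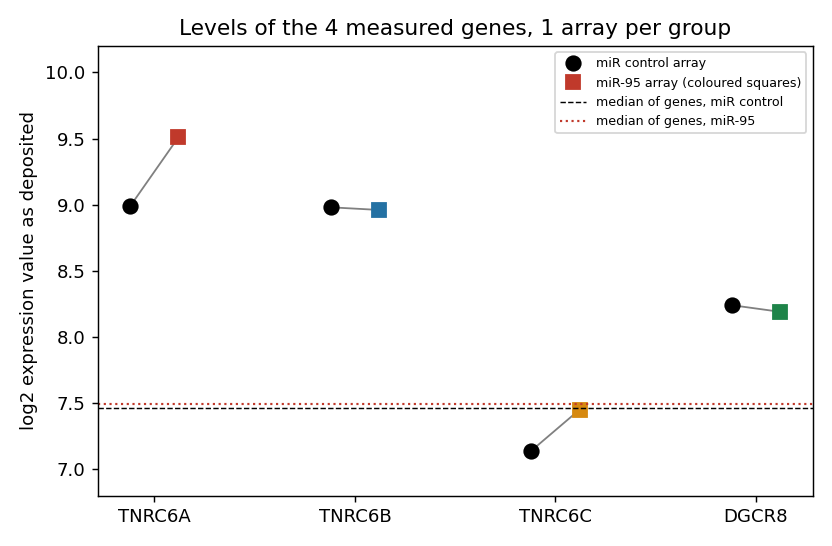
Deposited log2 values of the 4 measured genes (y axis), with black circles for the miR control array, coloured squares for the miR-95 array and horizontal lines for the median over genes of each array. TNRC6A goes from 8.99 to 9.51, TNRC6B and DGCR8 are nearly level, and both values of TNRC6C lie below the medians; each point is 1 array, so no error is drawn.

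Of the 3 detected members, 1 (TNRC6A) was at least 1.2-fold higher on the miR-95 array and 0 were at least 1.2-fold lower. The same limit was passed upwards by 5.48% of all detected genes and downwards by 8.45%. This balance depended on the centring, since with the deposited differences the shares were 7.09% upwards and 6.07% downwards. At 1.5-fold, 0 of the 3 passed in either direction, where 0.395% of all detected genes passed upwards and 0.861% downwards. At 2-fold, 0 members passed, against 0.0141% of detected genes upwards and 0% downwards. Lowering the detection limit to the 25th percentile adds TNRC6C, and 2 of 4 measured members then pass 1.2-fold upwards. At that limit 5.98% of all detected genes pass upwards.

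**Figure D2:**
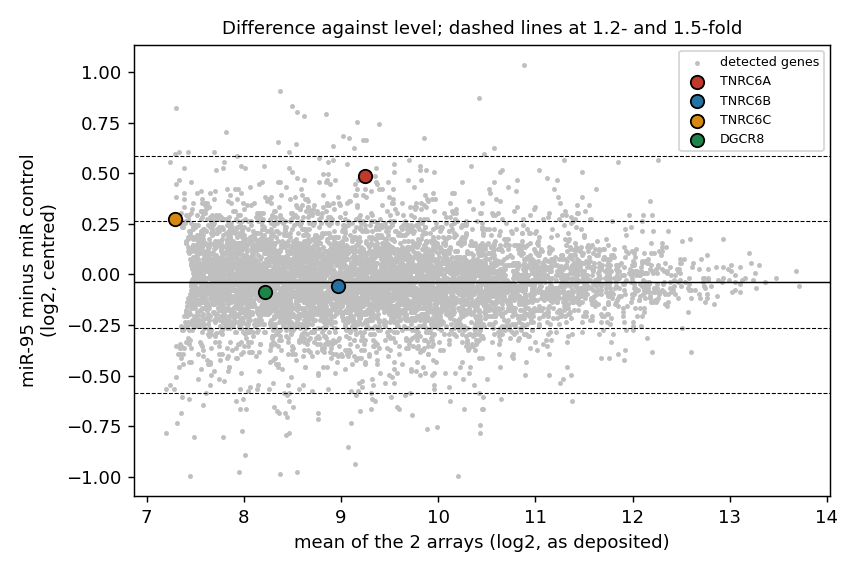
Mean of both arrays (x axis, log2 as deposited) against the centred difference, miR-95 minus control (y axis, log2), for the 7081 detected genes in grey, the 3 detected members and TNRC6C in colour; the solid line is the median of detected genes and the dashed lines are 1.2-fold and 1.5-fold. TNRC6A at 0.485 lies above the cloud's centre and below the 1.5-fold line, TNRC6C sits at the dim edge, and TNRC6B and DGCR8 lie inside the cloud.

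Some detected genes (68) had more than 1 probe set, and the disagreement between their differences corresponded to a spread of 0.126. The centred difference of TNRC6A was larger than 3 such spreads, while those of TNRC6B and DGCR8 were within 1. TNRC6C, below the detection limit, lay between them at 0.275. This spread was taken from detected genes only and holds no variation between cultures. The centred differences of all detected genes had a spread of 0.148, taken from their median absolute deviation. Each member was read by 1 probe set, so transcript forms of a gene could not be told apart.

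The 3 TNRC6 genes share a feature that the choice did not use, which DGCR8 does not have. They are long, with a RefSeq span of 216 kb for TNRC6A, 291 kb for TNRC6B and 151 kb for TNRC6C, while DGCR8 spans 31.6 kb. Longer genes tended to have lower differences than shorter genes. The median centred difference was -0.075 in the 1770 longest detected genes, which holds TNRC6A and TNRC6B, and 0.015 in the 1771 shortest. Among those 1770 longest genes, 22, TNRC6A included, had a difference at least as large as that of TNRC6A. After the trend with span was removed, TNRC6A stood at 0.564 and TNRC6B at 0.027, so the sign of TNRC6B depends on that step.

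The nearest measured genes in RefSeq order did not have the difference seen at TNRC6A. On its sides, RBBP6, a ubiquitin ligase with a role in messenger RNA 3′ end processing, differed by -0.055 and ARHGAP17, a GTPase-activating protein, by -0.125. Beside TNRC6B, ADSL, an enzyme of purine synthesis, differed by 0.245, and ENTHD1, below the detection limit, by -0.225. Beside TNRC6C, TMC6 differed by 0.075 and the undetected LINC01973 by -0.055. Beside DGCR8, the microRNA gene MIR185 differed by 0.165 and the undetected TRMT2A, a transfer RNA methyltransferase, by 0.045.

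The partners of these genes were read from 7 lists of 96 genes, of which 53 were measured and 46 detected. Of the 46, 35 had a negative and 11 a positive difference (76.1% negative, against 59.4% of all detected genes). The median was -0.11 against -0.035 for all detected genes (-0.075 against 0 as deposited). At 1.2-fold, 7 (15.2%) were lower and 0 higher, beside the 8.45% and 5.48% given above. At 1.5-fold, 2 (4.35%) were lower and 0 higher, beside 0.861% and 0.395% of all detected genes. With the deposited differences, 33 of the 46 were negative (71.7%, against 48.0% of all detected genes). On that scale 6 of the 46 were at least 1.2-fold lower and 1 (ZSWIM8) was at least 1.2-fold higher. Of all detected genes, 6.07% were lower and 7.09% higher by that limit. At 1.5-fold, 1 (PARN) was lower and 0 higher, beside 0.636% and 0.523% of all detected genes. These lists overlap in function with the members and were chosen with earlier results known, so the counts are a description.

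Among partners of the Microprocessor, 9 of 18 were detected, 7 negative (77.8%) and 2 positive, after centring and as deposited. The negative share of all detected genes was 59.4% (48.0% as deposited). The median of the 9 was -0.075 (-0.04 as deposited). HNRNPA2B1, an RNA-binding protein that aids the processing of some primary microRNAs, read 10.41 on the control array and 10.18 on the miR-95 array, a centred difference of -0.265 just past the 1.2-fold limit and a deposited one of -0.23 inside it. KHSRP, which binds precursor loops, differed by -0.155. HNRNPA1 and SRRT, the latter a link between the cap-binding complex and the Microprocessor, differed by 0.065 and 0.025. The helicase DDX5, a Microprocessor component, was bright and nearly level at 12.17 on the control and 12.16 on the miR-95 array. LIN28A and LIN28B, which block processing of let-7, were below the detection limit on both arrays.

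For the step after the nucleus, 2 of 4 genes were measured, and both were detected and nearly level. XPO5, the exporter of precursor hairpins, read 10.78 on the control array and 10.84 on the miR-95 array, a difference of 0.025. TARBP2, the partner of DICER1, read 9.19 and 9.28, a difference of 0.055.

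Among partners that load or bind Argonaute, 10 of 21 genes were detected. Of the 10, 2 (20%) passed 1.2-fold downwards, as did 8.45% of all detected genes. By sign, 9 were negative and 1 positive, where 59.4% of all detected genes were negative (48.0% as deposited). The median was -0.15 (-0.115 as deposited). FKBP5, a co-chaperone of HSP90, was 1.29-fold lower after centring (deposited values 8.08 on the control array, 7.75 on the miR-95 array). IPO8, an importin that binds Argonaute, was 1.28-fold lower after centring (9.50 and 9.18 as deposited). WTIP, a LIM-domain protein related to AJUBA, was the positive one at 0.075, and its relative LIMD1 differed by -0.045, near the median of all detected genes.

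Deadenylation genes, which TNRC6 proteins recruit, were thinly covered, with 4 of 17 measured. All 4 were detected and were negative after centring (3 of 4 as deposited), and 0 passed 1.2-fold. Among all detected genes 59.4% were negative (48.0% as deposited). The median of the 4 was -0.06 (-0.025 as deposited). CNOT11, a subunit of the CCR4-NOT complex, was lowest of the 4 at -0.255 (9.76 on the control array, 9.54 on the miR-95 array). CNOT9, the CCR4-NOT subunit that docks GW182 proteins, differed by -0.065, and PAN3, the other docking partner, by -0.055. PAN2, the nuclease that works with PAN3, was highest of the 4 at -0.025.

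Decapping, decay and translational repression genes, 11 detected of 18, lay at a median of -0.095 (-0.06 as deposited). Of the 11, 9 were negative (81.8%) and 2 positive, or 8 (72.7%) and 3 as deposited. The negative share of all detected genes was 59.4% (48.0% as deposited). DCP1A, an activator of the decapping enzyme, read 10.70 on the control array and 10.15 on the miR-95 array. It lay at the 1.5-fold limit after centring (-0.585) and inside it as deposited (-0.55). XRN1, the 5′ to 3′ exonuclease that degrades decapped messenger RNA, was 1.30-fold lower after centring (9.25 and 8.91 as deposited). Against this, EIF4E2, a cap-binding protein that represses translation, differed by 0.215 and EDC4, a decapping scaffold, by 0.045. DDX6, the helicase that joins CCR4-NOT to decapping, differed by -0.095.

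Genes that tail, trim or degrade small RNAs held the lowest partner gene. PARN, a poly(A)-specific ribonuclease that also trims small RNAs, read 10.77 on the control array and 10.14 on the miR-95 array, 1.59-fold lower after centring. TENT4B, a nucleotidyltransferase that adds tails which PARN can remove, was 1.31-fold lower after centring (9.78 and 9.42 as deposited). ZSWIM8, the ubiquitin ligase adaptor of target-directed microRNA decay, was 1.18-fold higher after centring and 1.21-fold as deposited (9.48 and 9.75). TENT2, another tailing enzyme, differed by 0.035. Of 14 genes 10 were detected, 6 negative (60%) and 4 positive, after centring and as deposited. Among all detected genes 59.4% were negative (48.0% as deposited). The median of the 10 was -0.155 (-0.12 as deposited).

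**Figure D3:**
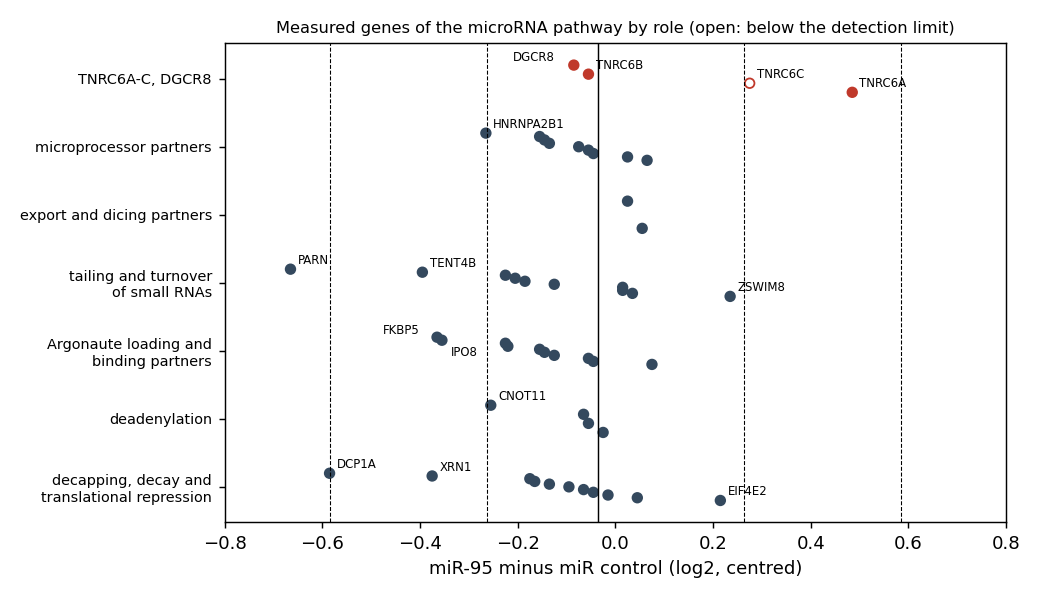
Centred differences, miR-95 minus control (x axis, log2), of the 4 measured members (red) and the 46 detected partner genes (dark) by role; the open circle is below the detection limit, the solid line is the median of all detected genes and the dashed lines are 1.2-fold and 1.5-fold. TNRC6A at 0.485 is the rightmost point and PARN at -0.665 the leftmost, and no detected partner reaches 1.2-fold upwards after centring, while ZSWIM8 does with the deposited values.

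The Argonaute relatives PIWIL1, PIWIL2, PIWIL3 and PIWIL4, known from the germline, were all measured and all below the detection limit, with deposited values from 3.77 to 5.73 on the control array. Of 582 microRNA hairpin genes with a probe set, 45 were detected, 24 with a positive and 21 with a negative difference (28 and 15 as deposited). The negative share was 46.7% (33.3% as deposited), beside 59.4% (48.0%) of all detected genes. The median of the hairpin genes was 0.015 (0.05 as deposited). Values of such short transcripts say nothing of the mature microRNAs.

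The labelled cell type was checked against its markers. Of 6 epithelial markers 5 were measured and all 5 were detected, among them the keratins KRT8, KRT18 and KRT19. The androgen-responsive markers KLK2, KLK3 and FOLH1, and the measured fibroblast, endothelial and neuroendocrine markers, were below the detection limit on both arrays. CD68, the 1 immune marker measured, was bright on both arrays (11.42 control, 11.56 miR-95); it encodes a lysosomal protein that cell lines also express. The fibroblast marker LUM, dim on both arrays, was lower on the miR-95 array (7.33 and 6.04). The neuroendocrine marker CHGB, also dim, was lower too (5.63 and 5.06). After centring, the other measured markers below the limit differed by -0.175 (DCN) to 0.095 (KLK3). The part of LUM or CHGB in the values above was not tested.

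**Figure D4:**
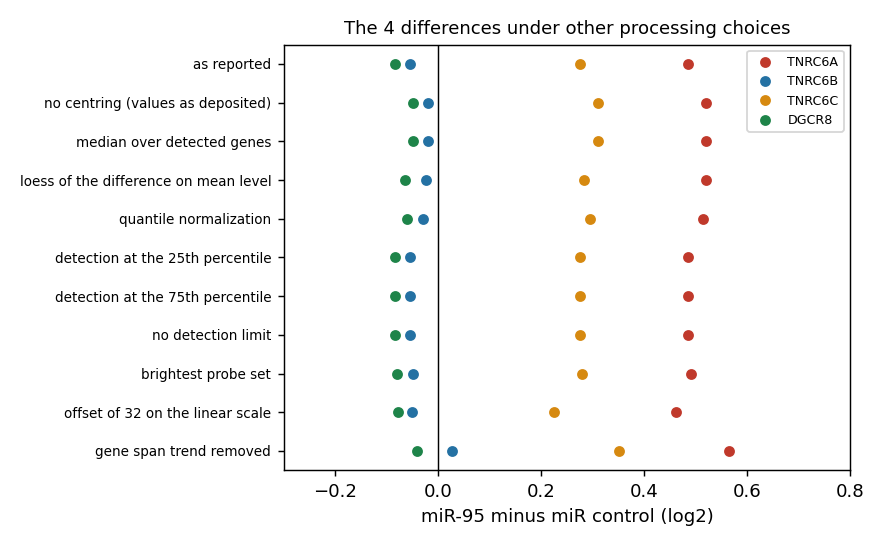
Differences of the 4 measured genes (x axis, log2, miR-95 minus control) as reported and under 10 other processing choices (y axis). TNRC6A stays between 0.461 and 0.564 and TNRC6C between 0.224 and 0.352, while TNRC6B and DGCR8 stay near 0; the detection settings cannot move a point.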

How the data were processed

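RNA of 2 PC3 derivatives was measured on 1 Affymetrix gene array each. The authors deposited log2 values for 23641 probe sets, produced with Affymetrix Expression Console 1.2 per the submitters' processing notes. The log2 scale was read from the values (1.79 to 13.84). The sources used here do not give the summarisation, background correction, scaling or build. Scaling that equates arrays would hide a shift common to all transcripts.

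Platform annotation named 1 gene for 14088 probe sets and several for 0, and 9553 carried no name and were not used. All 14088 matched RefSeq (GRCh38.p14) by Entrez identifier, which gave symbols, spans and gene order. Probe sets of a gene were averaged (167 genes) and arrays centred on the median over genes. On simulated arrays this centring was less precise than the median of the detected differences, which here gives the deposited differences again. The list medians given above are therefore printed both ways. Any other difference printed only after centring lies 0.035 below the deposited one.

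Named are all measured members, per list the 2 detected genes farthest up and farthest down, any past 1.5-fold, and each member's neighbours. DDX5, DDX6, the LIN28 and PIWIL genes and the markers were named outside this rule, after their values were seen. Members and lists were chosen with earlier results of these data known. With 1 array per group no test was run, and the number of arrays limits precision. Scripts used Python 3.11.15, pandas 2.3.3 and statsmodels 0.14.6.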

Additional observations from a re-analysis of the deposited data

How the results depend on the processing

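Alternatives were no centring, centring on detected genes, loess on level (span 0.4), quantile normalization, detection at the 25th or 75th percentile or without a limit, the brightest probe set, an offset of 32 before the logarithm, and removal of the trend with gene span. Under these 10, TNRC6A kept a positive difference of 0.461 to 0.564 and TNRC6C of 0.224 to 0.352, DGCR8 ranged from -0.085 to -0.042 and TNRC6B from -0.055 to 0.027. Not all of the 10 could move these values. The detection settings cannot change a member's difference. With 1 probe set per member, the brightest probe set can change only the centring. No centring and centring on detected genes gave the same values. Detection at the 75th percentile left 1 detected member, TNRC6A. Detection at the 25th percentile or no limit gave 2 members at least 1.2-fold higher in place of 1, through TNRC6C. Of all genes kept under these settings, 5.98% and 6.57% passed upwards. Among the partners, 1 in place of 0 was at least 1.2-fold higher with no centring, centring on detected genes, loess and quantile normalization. Under those settings 6.96% to 7.09% of all detected genes passed upwards. With no centring and centring on detected genes, the partner was ZSWIM8. Detection at the 25th percentile or no limit also gave 1, which was DCP1B. Below the main detection limit, DCP1B read 6.53 on the control array and 6.87 on the miR-95 array, a centred difference of 0.305. For the partners at least 1.5-fold lower, 1 (PARN) in place of 2 remained with no centring, centring on detected genes, loess, quantile normalization, the brightest probe set, the offset and the span correction, since DCP1A lay at the limit. HNRNPA2B1, at -0.265, fell inside the 1.2-fold limit under 6 of the 10, with -0.23 for no centring. The partners' median minus that of all detected genes stayed between -0.08 and -0.064. No paired analysis was possible because each group holds 1 array. Leaving out an array was likewise impossible.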
